A study of Mus musculus with 8 samples.

Results

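The genes described are 49 mouse genes of DNA replication and S phase. They were taken by symbol from a list of factors for origin licensing, the replication fork, nucleotide supply, chromatin copying and entry into S phase, with no threshold on measured values, though the list was drawn up with earlier results of these data known. All 49 were among the 29079 Ensembl genes of the deposited count table, and all 49 were among the 14923 genes that passed the filter on low counts. They were measured in MC38, a mouse colon adenocarcinoma cell line, in 4 groups of 2 mRNA sequencing libraries. The WT line carried a CRISPR control (CRISPR-Ctrl). The knockout (KO) line was edited with a single guide RNA (Piezo2-gRNA1) against Piezo2, a mechanically gated ion channel, and the sources do not say whether it is a clone or a pool. Each line was either not irradiated (non-IR) or given 30 Gy of X-rays in a single fraction (IR), and RNA was taken 60 hours later.

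Total counts per library ran from 10971004 to 19887180. Values are counts per M of total counts (CPM) scaled with TMM factors, and log2 changes carry the standard error (SE) of the edgeR fit. Piezo2 had between 0 and 12 reads per library and fell below the filter, so its mRNA does not check the knockout. Of the 6 epithelial markers in the table, Cdh1 (E-cadherin) was at 39.2 and 40.5 CPM in non-IR WT, while Krt18 had at most 2 reads in every library. Krt8, Krt19, Cldn7 and Vil1 reached at most 1.60 CPM in any library. Summed fibroblast markers were 1088 to 1187 CPM in non-IR WT, 1522 to 1691 in IR WT, 1494 to 1611 in non-IR KO and 2416 to 2692 in IR KO. Most of it came from Col1a2 and Col3a1, with Col1a1 at 4.63 to 16.4 CPM and Lum at 1 read or fewer per library. The 8 macrophage and leukocyte markers summed to 3.78 to 3.87, 37.2 to 39.4, 7.24 to 7.97 and 55.0 to 64.0 CPM in the same order, nearly all of it from Cd68, with Adgre1, C1qa, C1qb and Tyrobp at 2 reads or fewer in all 4 groups. T and NK cell markers summed to at most 0.514 CPM. The part of these markers in the results below was not tested.

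Before S phase the origin recognition complex, Cdc6 and Cdt1 load the ring-shaped MCM helicase, built from the subunits Mcm2 to Mcm7, onto origins, a step called licensing that geminin (Gmnn) restrains. Cyclin E kinase and the E2F factors drive entry into S phase, where Cdc45, the GINS complex and Mcm10 turn the loaded ring into a moving helicase. Polymerases, the sliding clamp and its loaders then copy the DNA, ligase joins the lagging strand, and a separate set of enzymes supplies the deoxynucleotides. Many of these genes are known E2F targets, and irradiated cells are known to delay in the cell cycle.

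Irradiation moved the roles in different directions. In WT, 8 of the 49 genes were higher and 12 lower after irradiation, with a median log2 change of -0.02. Over all tested genes 20.4 percent were called higher and 18.4 percent lower, with a median of 0.03. In KO, 7 were higher and 17 lower, with a median of -0.16, against 21.1 percent and 18.6 percent of all genes. In KO the share of the members called lower, 34.7 percent, stood above the background, and the share called higher, 14.3 percent, below it. The WT shares, 24.5 percent lower and 16.3 percent higher, lay nearer to the background. With the replicate block the counts were 14 higher and 21 lower in WT (background 30.6 percent and 29.9 percent) and 8 higher and 25 lower in KO (30.6 percent and 29.6 percent). The 8 higher in WT became 4 to 5 without any 1 library and 4 in DESeq2, and the 7 higher in KO became 3 without non-IR KO replicate 1 or either IR KO library. The genes called only with the block were Orc6, Mcm2, Mcm4, Cdc45, Gins1, Gins2, Prim2, Pole2, Pcna, Rfc1, Rfc4, Lig1, Chaf1b, Slbp and E2f1 in WT, and Mcm2, Mcm3, Mcm7, Prim1, Pold1, Pole2, Rfc1, Rfc3 and Slbp in KO. In bulk RNA, fewer cells in S phase and less of these mRNAs per cell cannot be told apart.

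**Figure D1:**
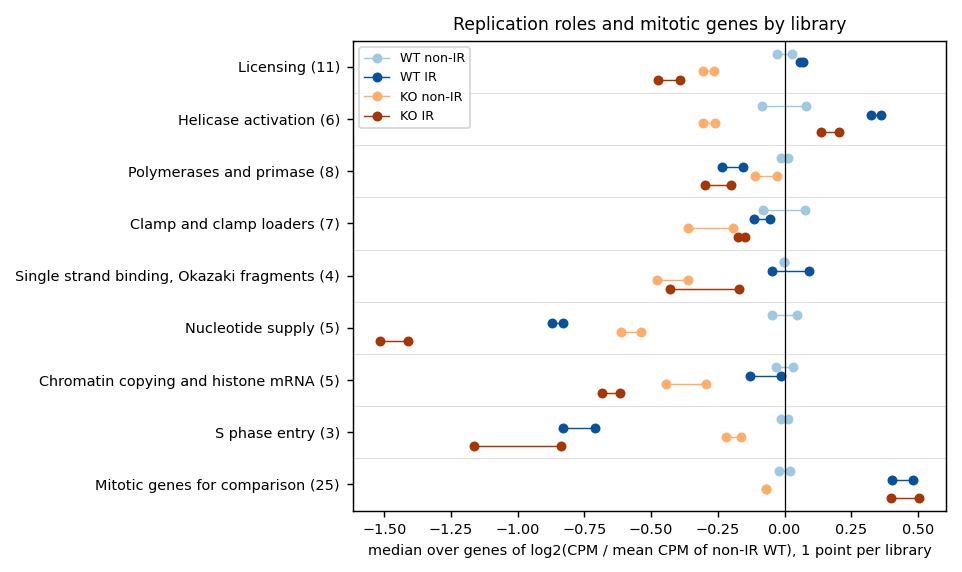
Median over the genes of each role of log2(CPM divided by the mean CPM of non-IR WT), 1 point per library, with the number of genes in brackets and a line joining the 2 libraries of a group. Nucleotide supply lies at -0.83 and -0.87 in IR WT and at -1.41 and -1.52 in IR KO, while the 25 mitotic genes lie above 0 in both irradiated groups.

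Nucleotide supply was the role in which every member fell. All 5 of its genes were lower after irradiation in WT (median log2 change -0.85) and all 5 in KO (-0.87). Of all tested genes 18.4 percent and 18.6 percent were lower. This does not extend to 10 other genes of nucleotide metabolism, part of the further pathway genes counted below. Of these, 4 were higher and 1 lower in WT, and 3 were higher and 1 lower in KO. Tk1 (ENSMUSG00000025574, mm10 chromosome 11, 117815526 to 117826092, minus strand), the cytosolic thymidine kinase of the salvage pathway, was at 202 and 202 CPM in non-IR WT, 76.1 and 81.6 in IR WT, 132 and 139 in non-IR KO, and 41.6 and 42.3 in IR KO. The 4 groups do not overlap, and IR KO is the lowest. The irradiation change was -1.36 ± 0.07 in WT (edgeR adjusted p = 1.84e-05) and -1.69 ± 0.07 in KO (adjusted p = 3.35e-06), the largest fall among the members after that of Ccne1 in both lines.

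Rrm2 (ENSMUSG00000020649, chromosome 12, 24708241 to 24714146), the cell-cycle-regulated small subunit of ribonucleotide reductase, which makes deoxynucleotides, had 474 and 427 CPM in non-IR WT, 253 and 246 in IR WT, 304 and 289 in non-IR KO, and 153 and 144 in IR KO. Its groups fall in the same order as those of Tk1, again without overlap. It changed by -0.85 ± 0.08 in WT (edgeR adjusted p = 0.000244) and -0.999 ± 0.082 in KO (9.77e-05). Tyms, thymidylate synthase (ENSMUSG00000025747), was at 74.0 and 67.5, 36.5 and 39.8, 41.3 and 46.9, and 27.1 and 27.6 CPM in non-IR WT, IR WT, non-IR KO and IR KO. Its changes were -0.89 ± 0.10 in WT (edgeR adjusted p = 0.000429) and -0.69 ± 0.10 in KO (0.00141). Irradiated libraries were below non-irradiated ones of the same line for both genes.

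Dut, the dUTPase that keeps uracil out of DNA, was at 115 and 108, 71.2 and 60.2, 70.2 and 77.7, and 42.0 and 39.0 CPM in the same order of groups. It changed by -0.77 ± 0.10 in WT and -0.87 ± 0.11 in KO (edgeR adjusted p = 0.00111 and 0.000639), and here IR WT and non-IR KO overlap. Rrm1 (ENSMUSG00000030978, chromosome 7, 102441695 to 102469771), the large subunit of the same reductase as Rrm2, was at 354 and 355, 305 and 305, 477 and 466, and 375 and 356 CPM. It fell less, by 0.22 ± 0.07 on the log2 scale in WT (edgeR adjusted p = 0.0395) and by 0.37 ± 0.07 in KO (0.00462). Its KO libraries lie above the WT libraries of the same treatment. Divided by exon length, the ratio of the Rrm2 level to the Rrm1 level was 5.32 and 4.77 in non-IR WT, 3.30 and 3.21 in IR WT, 2.54 and 2.47 in non-IR KO, and 1.63 and 1.60 in IR KO. The lengths merge the exons of all annotated transcripts, 11012 bases for Rrm1 and 2771 for Rrm2. The ratio therefore compares the groups and does not show which of the 2 mRNAs is more abundant.

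Genes of entry into S phase divided. Ccne1, cyclin E1 (ENSMUSG00000002068, chromosome 7, 38097984 to 38107534, minus strand), had 15.0 and 15.8 CPM in non-IR WT, 5.41 and 4.11 in IR WT, 13.7 and 14.5 in non-IR KO, and 3.55 and 4.39 in IR KO. Its log2 change was -1.70 ± 0.18 in WT and -1.83 ± 0.19 in KO (edgeR adjusted p = 0.000405 and 0.000272), the largest fall of any member in either line. Ccne2, cyclin E2, was at 42.0 and 37.6, 24.3 and 22.4, 38.2 and 30.2, and 22.3 and 17.7 CPM in non-IR WT, IR WT, non-IR KO and IR KO. Its change was -0.77 ± 0.15 in both lines (edgeR adjusted p = 0.00595 and 0.00611). For both cyclins the irradiated libraries lie below all non-irradiated ones, and the lines overlap or nearly meet after irradiation. E2f1, the transcription factor, showed no such fall, with 92.5 and 94.2, 103 and 104, 71.3 and 80.1, and 79.2 and 80.0 CPM. Its changes of 0.15 ± 0.08 and 0.07 ± 0.08 had edgeR adjusted p = 0.169 and 0.514, and 0.0166 and 0.327 with the replicate block.

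**Figure D2:**
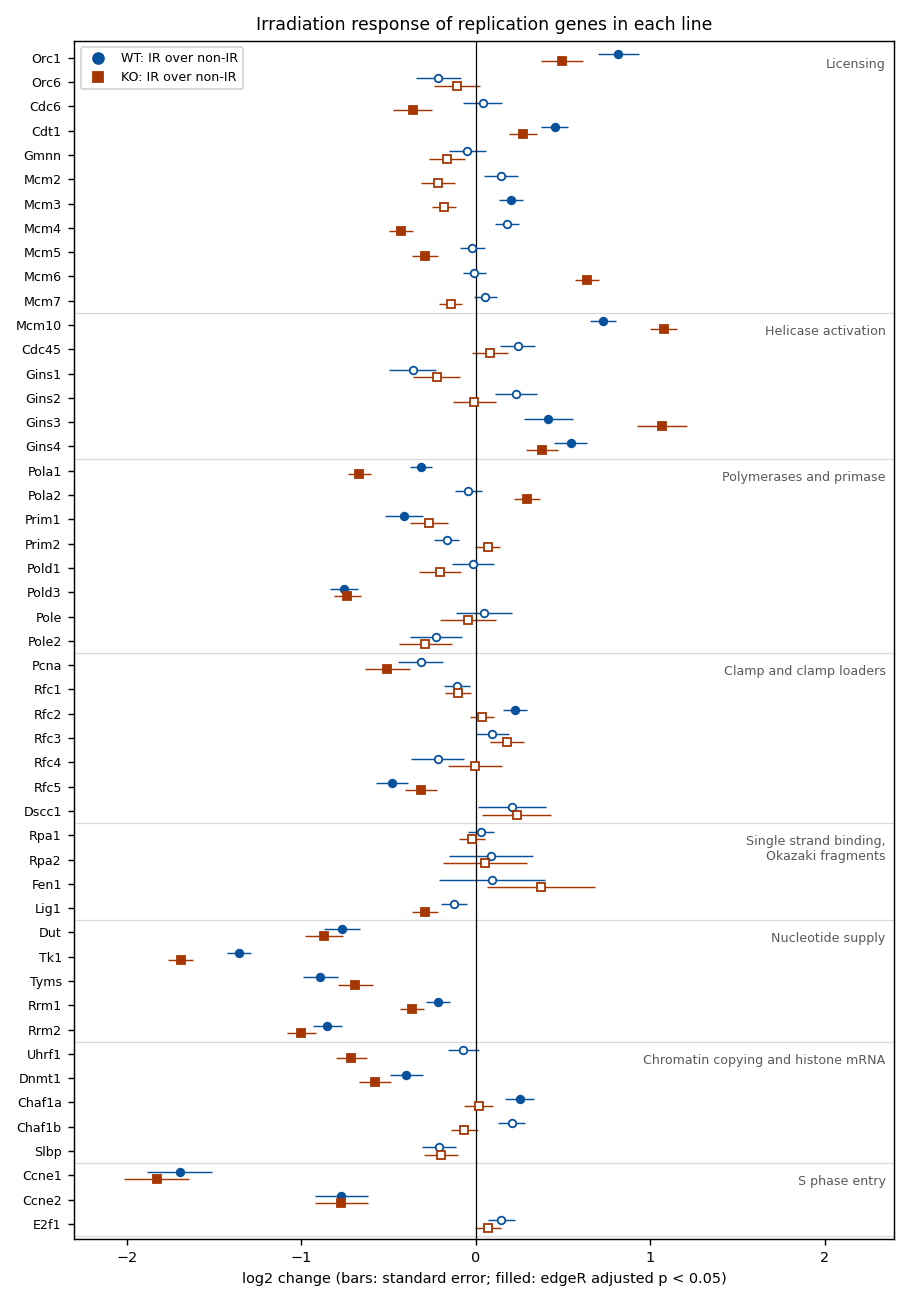
log2 change after irradiation for each of the 49 genes by role, in the WT line and in the KO line, with bars for the SE and filled symbols for edgeR adjusted p under 0.05. Nucleotide supply and the cyclin E genes lie left of 0 in both lines, and Orc1, Cdt1, Mcm10, Gins3 and Gins4 right of it.

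Licensing factors showed no common direction after irradiation. Of 11 licensing genes 3 were higher and 0 lower in WT, and 3 were higher and 3 lower in KO, with medians of 0.06 and -0.16. The share higher was 27.3 percent in each line, against 20.4 percent and 21.1 percent of all tested genes. DESeq2 called 2 higher in each line. Orc1, the largest subunit of the origin recognition complex (ENSMUSG00000028587, chromosome 4, 108579423 to 108614833), had 15.2 and 18.2 CPM in non-IR WT, 28.3 and 30.5 in IR WT, 13.5 and 14.5 in non-IR KO, and 20.2 and 19.3 in IR KO. It rose by 0.82 ± 0.12 in WT (edgeR adjusted p = 0.00152), the largest rise there, and by 0.50 ± 0.12 in KO (0.0145). Cdt1, which loads the MCM ring (ENSMUSG00000006585, chromosome 8, 122568015 to 122573554), was at 119 and 117, 159.7 and 163, 70.6 and 80.4, and 90.2 and 92.3 CPM. Its changes were 0.45 ± 0.08 in WT (edgeR adjusted p = 0.00326) and 0.27 ± 0.08 in KO (0.0293, but 0.0562 in DESeq2). Neither gene's irradiated libraries overlap the non-irradiated ones of the same line. The ratio of the Cdt1 level to that of its inhibitor Gmnn, each per kilobase of exon, was 1.13 and 1.18 in non-IR WT, 1.51 and 1.78 in IR WT, 0.672 and 0.868 in non-IR KO, and 1.01 and 1.06 in IR KO.

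Cdc6, the ATPase that works with Cdt1, had 78.1 and 66.1 CPM in non-IR WT, 75.2 and 73.2 in IR WT, 56.0 and 50 in non-IR KO, and 43.8 and 38.6 in IR KO. In WT the treated and untreated libraries overlap and the change was 0.04 ± 0.11 (edgeR adjusted p = 0.808), whereas in KO it fell by 0.36 ± 0.11 (0.0379). The difference between those changes, -0.40 ± 0.16, had an edgeR adjusted p = 0.357, and 0.00128 with the replicate block. Orc6 and Gmnn changed by -0.21 to -0.05 in both lines and passed the threshold in neither.

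The 6 MCM subunits parted after irradiation in the KO line. Mcm6 (ENSMUSG00000026355, chromosome 1, 128331590 to 128359664, minus strand) had 476 and 478 CPM in non-IR WT, 478 and 470.2 in IR WT, 447 and 446 in non-IR KO, and 699.6 and 689 in IR KO. Both IR KO libraries lie above the other 6, which span 446 to 478. Mcm4 (ENSMUSG00000022673, chromosome 16, 15623897 to 15637400, minus strand) went the other way, with 317 and 328, 363 and 367, 214 and 202, and 153 and 156 CPM, and its lowest values were those of IR KO. The irradiation change of Mcm6 was -0.01 ± 0.07 in WT (edgeR adjusted p = 0.943) and 0.64 ± 0.07 in KO (0.000319), and that of Mcm4 was 0.18 ± 0.07 (0.0771, or 0.000336 with the replicate block) and -0.43 ± 0.07 (0.00245).

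The difference of these changes was itself tested as the interaction, the irradiation change in KO minus that in WT. It was 0.64 ± 0.09 for Mcm6 (edgeR adjusted p = 0.0158) and -0.61 ± 0.10 for Mcm4 (0.0246). Mcm6, Mcm4 and Uhrf1 were the members called in it, 1 higher and 2 lower, where 1.37 percent and 0.57 percent of all tested genes were called, and the median over the members was -0.12 against -0.01 over all genes. With the replicate block 4 were higher and 13 lower (background 8.15 percent and 8.55 percent). The genes called only with the block were Cdc6, Mcm2, Mcm3, Mcm5, Mcm7, Mcm10, Gins3, Pola1, Pola2, Pcna, Tk1, Dnmt1, Chaf1a and Chaf1b. Without any 1 of the 8 libraries edgeR called 0 of the 49, with 9 to 12 at an unadjusted p under 0.05, although the Mcm6 estimate stayed between 0.605 and 0.661. DESeq2 on all 8 libraries called the same 3 genes, at adjusted p = 4.34e-06 for Mcm6, 0.000233 for Mcm4 and 0.000633 for Uhrf1.

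Mcm2 was at 296 and 309, 314 and 354, 219 and 254, and 198 and 209 CPM in non-IR WT, IR WT, non-IR KO and IR KO. It changed by 0.14 ± 0.10 in WT and -0.22 ± 0.10 in KO (edgeR adjusted p = 0.286 and 0.121, and 0.00452 and 5.79e-05 with the replicate block). Mcm5 was at 432 and 399, 401 and 419, 336 and 345, and 278 and 279 CPM, which gave -0.02 ± 0.07 in WT (edgeR adjusted p = 0.875) and -0.29 ± 0.07 in KO (0.0175). All IR KO libraries of both genes lie below every library of the other groups. Mcm3 rose in WT by 0.20 ± 0.07 (edgeR adjusted p = 0.0461, but 0.0571 in DESeq2), and Mcm7 passed the threshold in neither line.

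Per kilobase of exon, Mcm6 made up 21.1 and 21.6 percent of the summed level of the 6 subunits in non-IR WT, 20.4 and 19.7 percent in IR WT, 24.9 and 24.5 percent in non-IR KO, and 38.1 and 37.6 percent in IR KO. The highest subunit stood 2.54 and 2.31 times above the lowest in non-IR WT, and 5.27 and 4.91 times in IR KO. Mcm2 was the lowest in all 8 libraries by this measure, which divides it by 6956 merged exon bases, the most of the 6 subunits. In CPM without that division, Mcm2 had a mean of 303 in non-IR WT, above Mcm7 at 246. In IR KO its mean was 204, above Mcm7 at 189 and Mcm4 at 154. The shares and ratios given here rest on the same lengths. The summed level was 482 and 473 CPM per kb in non-IR WT, 502 and 512 in IR WT, 386 and 391 in non-IR KO, and 394 and 393 in IR KO. The 2 KO groups thus lie within 386 to 394 in the sum, while the share of Mcm6 in it differs.

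**Figure D3:**
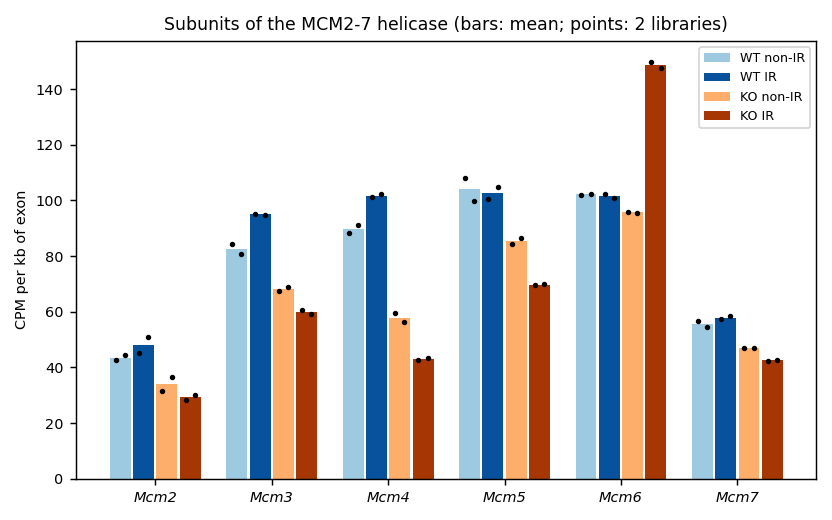
Level of each MCM subunit in CPM per kilobase of exon, 1 point per library in the 4 groups. Mcm6 stands apart from the other 5 subunits in the IR KO libraries, where it takes 38.1 and 37.6 percent of the sum.

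Promoter sequence was read from RefSeq on GRCm38.p6, in windows from 250 bases before to 50 bases after the annotated start, which matched 39 of the 49 genes. The letters searched on both strands were the E2F core sequences TTCCCGC, its variant TTGGCGC, the variant TTCGCGC and the variant TTGCCGC, which can overlap one another, and CCAAT. At least 1 E2F core was found in 25 of the 39 (64.1 percent), against 10.9 percent of all genes with a window, and CCAAT in 23 (59.0 percent) against 41.1 percent. Member windows also had a higher median GC content, 61.3 percent against 52.7 percent. By irradiation call, E2F letters were in 5 of 10 genes lower in both lines, 3 of 4 higher in both and 9 of 15 called in neither.
The 180 bases before the start are shown for Mcm6 and Mcm5, whose irradiation changes in KO had opposite signs, Pola1 and Tyms, lower in both lines, and Mcm10, higher in both. Capitals mark E2F letters and CCAAT or its reverse ATTGG, and each line reads 5′ to 3′ on the gene's own strand. The windows are chr1:128359706-128359885 on the minus strand, chr8:75109329-75109508 on the plus strand, and chrX:93632156-93632335, chr2:5012792-5012971 and chr5:30073626-30073805 on the minus strand.
Mcm6: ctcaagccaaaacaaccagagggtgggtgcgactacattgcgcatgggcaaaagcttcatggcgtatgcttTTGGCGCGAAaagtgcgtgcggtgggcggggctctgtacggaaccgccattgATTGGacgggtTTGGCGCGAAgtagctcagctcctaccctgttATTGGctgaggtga
Mcm5: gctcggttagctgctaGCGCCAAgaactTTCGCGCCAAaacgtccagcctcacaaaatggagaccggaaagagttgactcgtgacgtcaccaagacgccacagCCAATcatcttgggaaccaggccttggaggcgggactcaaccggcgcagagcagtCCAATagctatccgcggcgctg
Pola1: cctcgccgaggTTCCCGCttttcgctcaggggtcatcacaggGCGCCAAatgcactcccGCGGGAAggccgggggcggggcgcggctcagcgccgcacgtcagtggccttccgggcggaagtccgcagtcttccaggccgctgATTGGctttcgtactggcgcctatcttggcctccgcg
Mcm10: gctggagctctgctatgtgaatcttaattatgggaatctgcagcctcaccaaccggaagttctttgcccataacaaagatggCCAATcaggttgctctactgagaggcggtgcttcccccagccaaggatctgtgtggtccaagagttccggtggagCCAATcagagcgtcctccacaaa
Tyms: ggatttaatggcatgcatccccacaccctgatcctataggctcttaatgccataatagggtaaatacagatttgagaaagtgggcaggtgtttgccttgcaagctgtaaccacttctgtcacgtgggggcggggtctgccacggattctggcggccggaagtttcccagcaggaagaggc
Mcm6 has 4 E2F matches, in 2 overlapping pairs, and 2 CCAAT matches. Mcm5, with the opposite sign in KO, has 3 and 2, Pola1 3 and 1, Mcm10 0 and 2, and Tyms 0 and 0 in these bases. A match describes the letters only.

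The interaction genes were also set beside their neighbours, a choice made after their values were seen. The nearest gene to Mcm6, 3272 bases away, is Lct, the lactase gene, at only 0.183 to 1.64 CPM. It rose after irradiation by 1.53 in WT and 2.36 in KO (edgeR adjusted p = 0.0283 and 0.00647), and its interaction of 0.83 did not pass (0.715). Dars, 4043 bases from Mcm6 on the other side, had an interaction of 0.04 (edgeR adjusted p = 0.975), and Kdm4b, 2576 bases from Uhrf1, one of -0.34 (0.334). Prkdc, the DNA-dependent protein kinase gene 466 bases from Mcm4, was at 80.1 and 96.2, 118 and 127, 66.5 and 66.7, and 65.8 and 70.0 CPM in non-IR WT, IR WT, non-IR KO and IR KO. Its rise after irradiation in WT was 0.47 (edgeR adjusted p = 0.00782), and its interaction of -0.44 did not pass (0.230). The KO-over-WT change of Prkdc was -0.40 without irradiation and -0.85 after it (edgeR adjusted p = 0.0281 and 0.000902). Ube2v2, 28124 bases from Mcm4, had an interaction of -0.008. Its KO-over-WT changes of -0.51 and -0.52 did not pass (edgeR adjusted p = 0.340 and 0.317).

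Of the 6 genes that activate the helicase, 3 were higher and 0 lower in each line (Mcm10, Gins3 and Gins4), with medians of 0.33 in WT and 0.23 in KO. The share higher was 50 percent, against 20.4 percent and 21.1 percent of all tested genes. Mcm10 (ENSMUSG00000026669, chromosome 2, 4989714 to 5012791, minus strand), whose promoter is printed above, had 64.8 and 63.3 CPM in non-IR WT, 106 and 107 in IR WT, 51.5 and 56.2 in non-IR KO, and 116 and 111 in IR KO. It rose by 0.73 ± 0.07 in WT and 1.08 ± 0.08 in KO (edgeR adjusted p = 0.000304 and 4.03e-05), the largest rise of any member in KO. Gins3 was at 32.6 and 25.1, 35.5 and 41.5, 23.2 and 21.7, and 48.6 and 45.4 CPM. It rose by 0.42 ± 0.14 in WT (edgeR adjusted p = 0.0472, but 0.0571 in DESeq2) and 1.07 ± 0.14 in KO (0.000919). The difference between the lines, 0.65 ± 0.20, had an edgeR adjusted p = 0.205, and 0.00062 with the replicate block. Gins4 was at 40.1 and 35.6, 54.6 and 55.8, 42.0 and 46.7, and 57.8 and 57.9 CPM, and rose by 0.54 ± 0.09 and 0.38 ± 0.09 (edgeR adjusted p = 0.00315 and 0.0141). All 3 genes had their irradiated libraries above the non-irradiated ones of the same line, which describes the same values as the calls and is no further test. The other GINS subunits did not pass: Gins1 changed by -0.36 and -0.22, and Gins2 by 0.23 and -0.01, in WT and KO.

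Fork genes were called in both directions. Of 8 polymerase and primase genes, 0 were higher and 3 lower in WT, and 1 higher and 2 lower in KO. The shares lower were 37.5 percent in WT and 25 percent in KO, against 18.4 percent and 18.6 percent of all tested genes. For the clamp and its loaders they were 14.3 percent and 28.6 percent, and for single-strand binding and Okazaki fragment genes 0 and 25 percent. Pola1, the catalytic subunit of polymerase alpha (ENSMUSG00000006678, chromosome X, 93304767 to 93632155, minus strand), was at 188 and 187, 151 and 150.3, 155 and 149, and 96.0 and 95.2 CPM in non-IR WT, IR WT, non-IR KO and IR KO. It changed by -0.31 ± 0.06 in WT and -0.67 ± 0.07 in KO (edgeR adjusted p = 0.00698 and 0.000212). Pold3, named after its values were seen, as is Pola1, is an accessory subunit of polymerase delta. It went from 44.8 and 46.5 to 26.6 and 27.5 CPM in WT and from 51.5 and 53.0 to 31.1 and 31.7 in KO, with changes of -0.75 and -0.74. Prim1, the small primase subunit, fell in WT by 0.41 (edgeR adjusted p = 0.0205), and Pola2 rose in KO by 0.29 (0.0176). Prim2, Pold1, Pole and Pole2 passed the threshold in neither line.

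The sliding clamp gene Pcna had 398 and 323 CPM in non-IR WT, 307 and 272 in IR WT, 332 and 293 in non-IR KO, and 236 and 204 in IR KO, with replicate 1 above replicate 2 in every group. It changed by -0.32 ± 0.13 in WT (edgeR adjusted p = 0.0906, and 2.96e-08 with the replicate block) and by -0.51 ± 0.13 in KO (0.0177). A pseudogene, Pcna-ps2, was listed with 14 to 64 reads per library. Among the clamp loaders Rfc5 fell by 0.48 in WT and 0.31 in KO (edgeR adjusted p = 0.00504 and 0.0295, the latter 0.0545 in DESeq2). Rfc2 rose in WT by 0.22 (edgeR adjusted p = 0.0356, but 0.112 in DESeq2), and Rfc1, Rfc3, Rfc4 and Dscc1 passed in neither line. Of the single-strand binding and Okazaki fragment genes, Lig1, the replicative ligase, fell in KO by 0.29 (edgeR adjusted p = 0.0177), and Rpa1 and Rpa2 passed in neither line. Fen1, the flap endonuclease, was listed at only 1.56 to 2.67 CPM. Of its exon bases 84.2 percent are shared with genes on the opposite strand, and without a known strand setting its reads are uncertain.

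Genes that copy chromatin split as well. Uhrf1, which brings Dnmt1 to newly copied DNA (ENSMUSG00000001228, chromosome 17, 56303321 to 56323486), was at 401 and 435 CPM in non-IR WT, 383 and 414 in IR WT, 304 and 341 in non-IR KO, and 196 and 197 in IR KO. WT libraries overlap between treatments, and IR KO lies apart at the bottom. It changed by -0.07 ± 0.09 in WT (edgeR adjusted p = 0.569) and -0.71 ± 0.09 in KO (0.000677), and the interaction of -0.64 ± 0.12 lay at the threshold (0.0499). Dnmt1, the maintenance DNA methyltransferase, fell in both lines, by 0.40 and 0.58 (edgeR adjusted p = 0.0121 and 0.00237). Chaf1a, the large subunit of the histone chaperone CAF-1, rose in WT by 0.25 (edgeR adjusted p = 0.0459, but 0.0627 in DESeq2). Slbp, which binds histone mRNA, changed by -0.21 and -0.20 and did not pass (edgeR adjusted p = 0.122 and 0.140, and 0.0007 and 0.00126 with the replicate block).

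**Figure D4:**
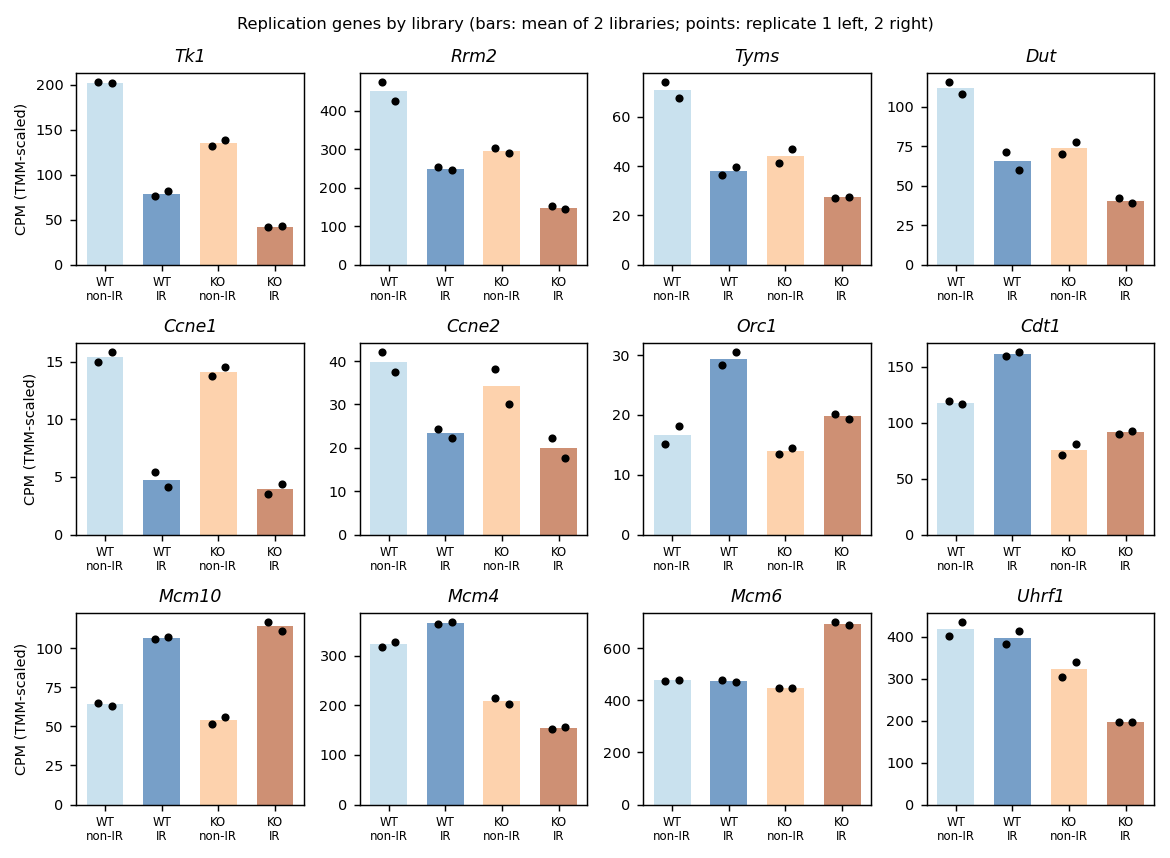
CPM of single members in each of the 8 libraries, in the 4 groups. Tk1 and Rrm2 are lowest in IR KO, and Mcm6 is highest there.

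The irradiation changes of the lines rest on separate libraries and can be set side by side. Over the 49 genes they had Pearson's r = 0.873 and Spearman's rho = 0.792, and over all tested genes r was 0.798. The genes share libraries and scaling, so this describes the lists and is no test. The sign was the same for 37 genes (75.5 percent, against 82.5 percent of all tested genes). Genes lower in both lines numbered 11 (Pola1, Pold3, Rfc5, all 5 nucleotide supply genes, Dnmt1, Ccne1 and Ccne2) and genes higher in both numbered 5 (Orc1, Cdt1, Mcm10, Gins3 and Gins4), with 0 called in opposite directions. Calls shared by both lines were not counted over all tested genes, so these counts only list the members. The change in KO lay below that in WT for 31 genes and above it for 18.

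The KO line had lower levels of these genes than the WT line already without irradiation. In non-IR libraries 1 of the 49 was higher and 21 were lower in KO, with a median log2 change of -0.28. Over all tested genes 10.4 percent were higher and 9.49 percent lower, with a median of -0.01. After irradiation 2 were higher and 22 lower, with a median of -0.25, against 13.3 percent and 11.4 percent. The shares called lower, 42.9 percent and 44.9 percent, stood above the background in both comparisons. With the replicate block 33 were lower and 4 higher without irradiation (background 23.5 percent and 21.4 percent) and 31 lower and 6 higher after it (25.2 percent each). The block added Orc6, Mcm6, Mcm10, Gins2, Gins3, Gins4, Pold3, Pole, Pcna, Rfc2, Rfc3, Rfc5, Chaf1a, Slbp and Ccne2 without irradiation, and Orc6, Gins3, Prim1, Prim2, Pold1, Pold3, Pole, Pole2, Pcna, Rfc3, Rfc4, Slbp and Ccne2 after it. The non-IR count of 21 was 11 without either non-IR WT library and 8 without non-IR KO replicate 1.

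Licensing, the role with the most genes, also held the largest number of these. Without irradiation 7 of 11 were lower (63.6 percent) and 0 higher, with a median of -0.29. After irradiation 8 were lower (72.7 percent) and 1 higher, with a median of -0.57. Over all tested genes 9.49 percent and 11.4 percent were lower. The share of nucleotide supply genes that were lower was larger than that of licensing, at 80 percent in each comparison. Mcm2, Mcm3, Mcm4, Mcm5 and Mcm7 were lower in KO in both comparisons, by 0.24 (Mcm7) to 0.63 (Mcm4) without irradiation and by 0.44 (Mcm7) to 1.24 (Mcm4) after it. Among the irradiated libraries Mcm4 differed most between the lines of all 49, with a KO-over-WT change of -1.24 ± 0.07 (edgeR adjusted p = 2.93e-05). Mcm6 was the exception, at -0.09 ± 0.07 without irradiation (edgeR adjusted p = 0.378, or 0.0406 with the replicate block) and 0.55 ± 0.07 after it (0.00105). Cdt1 was lower in KO by 0.64 ± 0.08 and 0.82 ± 0.08 (edgeR adjusted p = 0.00168 and 0.000329), and Cdc6 by 0.45 ± 0.11 and 0.85 ± 0.11 (0.029 and 0.00159). Orc1 was lower after irradiation, by 0.57 ± 0.12 (edgeR adjusted p = 0.0109), and Orc6 and Gmnn passed in neither comparison.

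**Figure D5:**
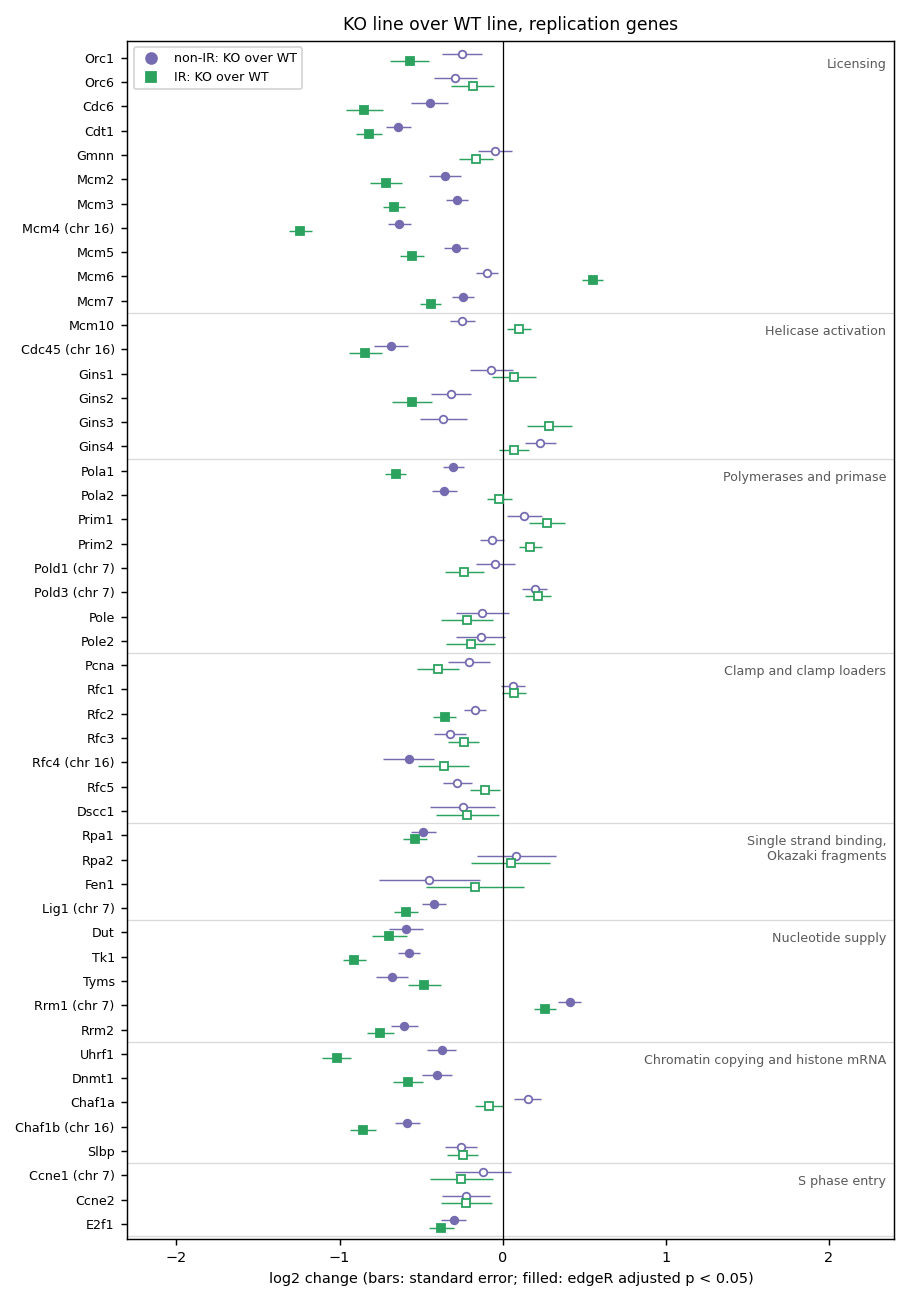
log2 change of the KO line over the WT line for each of the 49 genes by role, without irradiation and after it, with bars for the SE and filled symbols for edgeR adjusted p under 0.05. Most genes lie left of 0, Mcm6 changes sides after irradiation, and Rrm1 lies right of 0 in both comparisons.

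Of the nucleotide supply genes, 4 were lower and 1 higher in KO in each comparison. Tk1 was lower by 0.57 ± 0.07 without irradiation and 0.91 ± 0.07 after it (edgeR adjusted p = 0.00141 and 0.000137), and Rrm2 by 0.60 ± 0.08 and 0.75 ± 0.08 (0.00253 and 0.000659). Tyms was lower by 0.68 and 0.48, and Dut by 0.59 and 0.70. Rrm1 was higher in KO, by 0.41 ± 0.07 without irradiation (edgeR adjusted p = 0.00607) and 0.26 ± 0.07 after it (0.0298). The 5 genes summed to 1220 and 1159 CPM in non-IR WT, 742 and 733 in IR WT, 1025 and 1019 in non-IR KO, and 639 and 608 in IR KO, and the 4 groups do not overlap.

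Cdc45, which joins MCM and GINS in the active helicase (ENSMUSG00000000028, chromosome 16, 18780447 to 18811987, minus strand), was at 99.8 and 84.2, 112 and 106, 59.5 and 55.1, and 62.9 and 58.3 CPM in non-IR WT, IR WT, non-IR KO and IR KO. Every KO library lies below every WT library, and KO was lower by 0.68 ± 0.10 and 0.84 ± 0.10 (edgeR adjusted p = 0.00365 and 0.00098). Chaf1b, the middle subunit of CAF-1, was at 89.6 and 93.6, 103 and 108, 58.7 and 63.4, and 57.0 and 59.8 CPM. It was lower in KO by 0.58 ± 0.08 and 0.86 ± 0.08 (edgeR adjusted p = 0.00221 and 0.000248), again without overlap, while Chaf1a passed in neither comparison. Rpa1, the large subunit of the single-strand binding protein RPA, was lower by 0.49 and 0.54, Lig1 by 0.42 and 0.59, and Pola1 by 0.30 and 0.66. Uhrf1 was lower by 0.37 ± 0.09 and 1.02 ± 0.09 (edgeR adjusted p = 0.0222 and 0.000214), and Dnmt1 by 0.40 and 0.58. E2f1 was lower by 0.30 ± 0.08 and 0.38 ± 0.08 (edgeR adjusted p = 0.0312 and 0.0105, with 0.0502 in DESeq2 for the first).

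Genes without a call between the lines were also many. Mcm10, Gins3 and Gins4, which rose after irradiation, differed between the lines by -0.36 to 0.29 and passed in neither comparison, though the replicate block gave adjusted p = 0.00115 for Mcm10 without irradiation, 0.00391 and 0.00927 for Gins3 without and after it, and 0.0117 for Gins4 without it. Ccne1 differed by -0.12 and -0.25, and Ccne2 by -0.22 in each comparison (edgeR adjusted p = 0.346 in each, and 0.0306 and 0.0497 with the replicate block). Pcna differed by -0.21 ± 0.13 and -0.40 ± 0.13 (edgeR adjusted p = 0.317 and 0.0621, and 0.000117 and 1.89e-10 with the replicate block). Of the remaining members, Pola2 and Rfc4 were lower without irradiation, and Gins2 and Rfc2 after it.

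Gene position moved with the difference between the lines. Over all tested genes of chromosome 16 the median KO-over-WT log2 change was -0.32 without irradiation and -0.36 after it, and over chromosome 7 it was 0.37 and 0.38. On chromosome 16 lie Mcm4, Cdc45, Rfc4 and Chaf1b, all 4 lower in KO without irradiation and 3 after it. Of all tested genes on that chromosome 31.25 percent and 34.15 percent were lower. On chromosome 7 lie Ccne1, Lig1, Pold1, Pold3 and Rrm1, of which Rrm1 was higher and Lig1 lower. There 29.1 percent of all tested genes were higher without irradiation and 32.7 percent after it, and 2.61 percent were lower in each comparison. The 40 members elsewhere still held 16 lower and 0 higher without irradiation (9.38 percent and 9.04 percent of all genes there) and 18 lower and 1 higher after it (11.4 percent and 11.9 percent), with medians of -0.28 and -0.24. The part of position in the values of Mcm4, Cdc45, Rfc4, Chaf1b and Rrm1 was not tested.

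Other genes of the pathway were counted on a list of 70, none of them among the 49. In WT 11 were higher and 23 lower after irradiation (15.7 percent and 32.9 percent, against 20.4 percent and 18.4 percent of all tested genes). In KO 10 were higher and 23 lower (14.3 percent and 32.9 percent, against 21.1 percent and 18.6 percent). With the replicate block the counts were 15 and 39 in WT and 17 and 38 in KO. Pold2, a polymerase delta subunit, fell by 1.60 ± 0.15 in WT and 1.56 ± 0.15 in KO (edgeR adjusted p = 0.000182 and 0.000179), and Dna2, a nuclease and helicase of Okazaki fragment processing, fell in WT by 1.29. Ccnd1, cyclin D1, changed by -1.27 in WT and -1.83 in KO, and Dctd, dCMP deaminase, by -1.55 in KO. Rises were led in WT by Samhd1, a hydrolase of deoxynucleotides, the cyclin kinase inhibitor Cdkn1b (0.62, edgeR adjusted p = 0.0278) and Rbl2 (0.57), a relative of the retinoblastoma protein. In KO they were led by Samhd1, the mitochondrial thymidine kinase Tk2 (0.70) and Rrm2b, the p53-inducible reductase subunit (0.59). Of 24 genes of S phase entry control 13 were lower in WT and 12 in KO.

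Samhd1 (ENSMUSG00000027639, chromosome 2, 157097533 to 157135265, minus strand) was at 138 and 142 CPM in non-IR WT, 249 and 233 in IR WT, 174 and 181 in non-IR KO, and 720.2 and 700.3 in IR KO. It rose by 0.79 ± 0.07 in WT and 2.0 ± 0.08 in KO (edgeR adjusted p = 0.000215 and 2.12e-06), while Tk1, Tyms, Rrm1 and Rrm2 were lower in both lines. Its interaction of 1.22 ± 0.10 passed (edgeR adjusted p = 0.00199). Ccnd2, cyclin D2, with an interaction of 1.11 ± 0.11 (0.00255), and E2f2, with 0.86 ± 0.14 (0.0292), were the other 2 of the 70 called there, and 0 were lower. DESeq2 called 3 higher and 1 lower, and the replicate block 6 higher and 13 lower (background 8.15 percent and 8.55 percent).

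Between the lines, 8 of the 70 were higher and 12 lower in KO without irradiation, and 9 higher and 17 lower after it. The shares higher, 11.4 percent and 12.9 percent, were near the 10.4 percent and 13.3 percent of all tested genes, and the shares lower, 17.1 percent and 24.3 percent, stood above 9.49 percent and 11.4 percent. The replicate block gave 15 higher and 40 lower without irradiation and 14 and 34 after it. The largest rises without irradiation were those of Cdkn1a, which encodes the p21 inhibitor of cyclin kinases, at 0.88 ± 0.08 (edgeR adjusted p = 0.000369), of the histone chaperone Nasp (0.44) and of Clspn, claspin of the replication checkpoint (0.44). Cdkn1a had 96.3 and 87.8 CPM in non-IR WT, 101 and 101 in IR WT, 174 and 164 in non-IR KO, and 234 and 226 in IR KO, and every KO library lies above every WT library. The largest falls were those of Dctd (-0.77), E2f4 (-0.71) and Donson (-0.65), a replication initiation factor whose gene lies on chromosome 16. After irradiation Samhd1 (1.56), Ccnd2 (1.41) and Cdkn1a (1.18) were highest, and Dctd (-1.06), Donson (-0.91) and Ccnd1 (-0.80) lowest.

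A list of 25 mitotic genes was set beside the replication genes. In WT 16 of them were higher and 0 lower after irradiation, with a median log2 change of 0.43, and in KO 14 were higher and 1 lower, with a median of 0.34, where 20.4 percent and 21.1 percent of all tested genes were higher. The replicate block gave 22 higher and 1 lower in WT (background 30.6 percent and 29.9 percent). In KO it gave 17 higher and 3 lower (30.6 percent and 29.6 percent). Between the lines 3 were higher (12 percent) and 2 lower (8 percent) without irradiation, against 10.4 percent and 9.49 percent of all tested genes. After irradiation 3 were higher (12 percent) and 7 lower (28 percent), against 13.3 percent and 11.4 percent. The medians were -0.07 and -0.08. With the replicate block the counts higher and lower in KO were 6 and 11 without irradiation (background 21.4 percent higher and 23.5 percent lower) and 8 and 11 after it (25.2 percent each). The summed CPM of the 49 replication genes was 7772 and 7609 in non-IR WT, 7115 and 7193 in IR WT, 6373 and 6431 in non-IR KO, and 5669 and 5548 in IR KO, 4 groups without overlap.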

How the data were processed

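RNA of 8 MC38 libraries was sequenced. The authors deposited whole-number read counts per Ensembl gene, with no normalization. Per the submitters' processing notes the tools were HISAT2, HISAT, HTSeq and DESeq2, with no version, and the build was mm10. No source used here states the annotation release, the strand setting or how multiply mapped reads were handled.

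Tests were run in edgeR 4.0.16 under R 4.3.3. filterByExpr (minimum count 10, minimum total 15) kept 14923 genes, and TMM factors ran from 0.975 to 1.024. A quasi-likelihood model of all 8 libraries had a coefficient for each group, which left 4 residual degrees of freedom. Each two-sided F test was Benjamini-Hochberg adjusted over all tested genes, with calls at an adjusted p under 0.05. The edgeR step was tested on simulated data. Gene positions and exon lengths came from GENCODE M21, on mm10. Exon lengths merge the exons of all annotated transcripts of a gene. Levels per kilobase therefore compare groups for the same genes, and their ranking between genes depends on the annotation. Of the members, 18 share exon bases with another gene. For 3, Fen1, Gins2 and Chaf1a, over 50 percent is shared, and strand cannot be told apart.

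Same-numbered libraries deviated together, with correlations of the replicate differences of 0.564 to 0.611 over all 6 pairs of groups. This pairing comes from the data and is not stated in the labels. A fit with the replicate number as a block is therefore given where it changes a call of a described gene or moves the count of the 49, 70 or 25 genes by over 1.5 times; for the roles, the genes it adds are named once. The other alternatives were RLE scaling, no filter, DESeq2 1.42.0, only the groups compared, and leaving out each library. Whether replicates are separate cultures is not given, so the spread that p-values rest on may be technical. A count of 0 allows up to 3 counts, 0.151 to 0.273 CPM by library, which covers counting error only.

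The members and lists were chosen with earlier results of these data known. Values per library are given for 12 chosen genes, for the 5 called members with the largest rise and the 5 with the largest fall in a comparison and for every member called in the interaction. Pola1 and Pold3 are given beside these, chosen after their values were seen. Up to 3 rises and 3 falls per comparison are named from the 70 other pathway genes. Statements that libraries or groups do not overlap describe the values behind the calls. The share of all tested genes whose groups part in this way was not counted. The markers Epcam and Cdx2 are not analysed here.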

Additional observations from a re-analysis of the deposited data

Results flagged for a closer look

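The irradiation changes of 6 genes differed between the lines by the edgeR test of the difference itself, the change in KO minus that in WT. On the log2 scale the difference was 0.64 for Mcm6, -0.61 for Mcm4 and -0.64 for Uhrf1 among the 49 members. Among the other pathway genes it was 1.22 for Samhd1, 1.11 for Ccnd2 and 0.86 for E2f2. Ccnd2 went from 143 and 159 to 77.8 and 80.4 CPM after irradiation in WT, a fall of 0.93 ± 0.08, and from 184 and 187 to 207 and 213 in KO, a change of 0.18 ± 0.08 that did not pass (edgeR adjusted p = 0.0992, and 0.000644 with the replicate block). E2f2 went from 28.8 and 32.1 to 18.3 and 16.8 CPM in WT, a fall of 0.80 ± 0.10, and was at 30.1 and 33.2 and then 33.6 and 32.8 CPM in KO, so that its 2 KO groups and non-IR WT lie close together.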

How the results depend on the processing

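No result reversed under any alternative run, and RLE scaling moved no count of members by over 1.5 times. Of 79 called changes of named genes, 59 kept their call under every alternative. DESeq2 ended 3 of the calls, no filter 3, the fit of only the groups compared 9, the replicate block 0, and leaving out a library 8 to 18. Under the replicate block the members called higher and lower were 14 and 21 for irradiation in WT, 4 and 33 for KO without irradiation and 4 and 13 for the interaction, and 6 were higher for KO after irradiation. Members higher after irradiation in WT numbered 5 with no filter, 4 in DESeq2 and 4 in the fit of only the groups compared, against 8. The last fit left 10 lower in KO without irradiation, against 21, and 1 higher after it, as did no filter, which gave 2 higher in the interaction.

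Leaving out each library in turn gave, for irradiation in WT, 4 to 5 higher and 10 to 12 lower, with a median of -0.079 to -0.021. For irradiation in KO it gave 3 to 7 higher, with 3 without non-IR KO replicate 1 or either IR KO library, and 13 to 17 lower, with a median of -0.20 to -0.15. For KO without irradiation it gave 8 to 16 lower, with a median of -0.306 to -0.225. For KO after irradiation it gave 1 to 2 higher, 17 to 23 lower and a median of -0.363 to -0.247, with -0.363 without IR WT replicate 2 and -0.358 without IR KO replicate 1. In the interaction edgeR called 0 higher and 0 lower without any 1 library, with 9 to 12 at an unadjusted p under 0.05. A left-out library leaves its group with 1 sample, which is assumed to vary like the others.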
